A study of Sus scrofa with 27 samples.

Results

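Genes of ribosome biogenesis and of the nucleolus were followed in pig lungs kept alive outside the body by ex vivo lung perfusion (EVLP). The list held 48 gene names, and a name counted as a member when a row of the raw count table carried it as its gene symbol and held at least 10 counts in at least 1 library. This gave 41 members of 31908 genes in the table. Of the other 7 names, 6 (NOP2, NPM1, BOP1, DDX10, NHP2 and LTV1) had a row without a symbol that only the gene number in its description named, so they were kept apart, and NOP16 was not analysed. No listed name was dropped for low counts, and the member with the lowest highest count was WDR43, with at most 45 counts in a library. The names were put together with earlier results of these data known, and which of these results were used is not recorded. Values of the Pediatric Dialysis group after perfusion, and its differences from the other group after perfusion, were treated as used and given as a description. No p-value of a member is printed from them, and nothing is read from the calls and counts of members that are given. The p-values and shares of the other comparisons may not be independent of the choice of names either.

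The lungs came from 9 Large-White pigs, taken after death from donors without a heartbeat, cooled, and perfused at reduced flow with Steen solution that held methylprednisolone, cefuroxime and heparin, by the Toronto protocol, for 12h. In the Gold Standard group (GS, 5 pigs) part of the perfusate was replaced at intervals, and in the Pediatric Dialysis group (PD, 4 pigs) the circuit was dialysed through a pediatric membrane instead. A biopsy of each lung was taken at 0h, before perfusion, and at 6h and 12h, which gave 27 bulk RNA-seq libraries with 3 from each pig. Both groups received the same glucocorticoid and antibiotic, and no lung kept without perfusion over the same hours was analysed here, so time and perfusion cannot be told apart.

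Ribosomes are built in the nucleolus, where RNA polymerase I transcribes the precursor of the ribosomal RNAs. Small nucleolar ribonucleoproteins (snoRNPs) modify this precursor, the small subunit processome folds and cleaves it, and separate sets of assembly factors complete the small and the large subunit before export to the cytoplasm. The output of this pathway follows the demand for protein synthesis, and the transcription factor MYC, which binds the sequence CACGTG known as an E-box, is known to activate many of its genes.

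The sequence 300 bases long around each gene's start as the count table gives it, 250 before and 50 after, was read from the pig genome (RefSeq Sscrofa11.1, the build of the count table). CACGTG, which reads the same on both strands, was in 10 of 41 member promoters (24.4%), and in 7.44% of the promoters of 20273 protein-coding genes. The 10 were DDX18, NOC3L, NOP14, PNO1, RPP40, RRP12, RRS1, UTP20, UTP4 and WDR43. The stretches before the start that hold it are shown for the 5 members in which CACGTG lay wholly upstream, with the motif in capitals, since an E-box is the element by which MYC is known to reach such promoters.
UTP20, chr5:82913156-82913224, minus strand: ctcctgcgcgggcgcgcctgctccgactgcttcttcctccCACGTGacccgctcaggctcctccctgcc
WDR43, chr3:110365063-110365129, minus strand: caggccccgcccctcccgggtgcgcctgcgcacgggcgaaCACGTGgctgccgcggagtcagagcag
PNO1, chr3:74084792-74084864, minus strand: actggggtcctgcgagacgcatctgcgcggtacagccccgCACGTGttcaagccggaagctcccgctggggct
NOC3L, chr14:105806272-105806342, minus strand: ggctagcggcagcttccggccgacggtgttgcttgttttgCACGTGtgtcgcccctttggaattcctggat
RPP40, chr7:3005319-3005404, minus strand: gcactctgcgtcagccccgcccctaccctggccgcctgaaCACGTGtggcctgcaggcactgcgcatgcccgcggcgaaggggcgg
The motif began 27 to 33 bases before that start in UTP20, WDR43, PNO1 and NOC3L, and 92 bases before it in RPP40. Of the other motifs, all searched on both strands, CCGGAAGT was in 6 member promoters (14.6%, 4.52% of all), CCAAT in 10 (24.4%, 34.3% of all), and the palindromic motifs known for NRF1 and ZBTB33 in 1 each (2.44%, against 0.982% and 0.582% of all). A match is a description of these letters and not a bound site.

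Total counts were 26335584 to 67522703 in the 15 GS libraries and 14650700 to 21820935 in the 12 PD libraries. No PD library was as deep as any GS library. Per the paper, the PD lungs had served an earlier study of the same laboratory at its 6h time point, while the GS lungs had not. The sample labels used here name no batch, so any difference in batch cannot be told apart from the group. The 12h library of PD pig 2 stood apart, with 18979 genes detected against at least 20298 in the other PD libraries and with 1.65% mitochondrial counts against 4.97 to 11.6%. Lung markers were present in every library: summed surfactant and other alveolar type 2 markers (5 of 6 with a row) stood at 6524 to 9243 CPM in GS and 26022 to 77066 CPM in PD at 0h. Red blood cell markers (4 of 5 with a row) summed to 0.799 to 10.8 CPM in GS and 51.7 to 239 CPM in PD at 0h. Summed proliferation markers (4 of 5 with a row) were at 49.6 to 106 CPM in GS at 0h and 36.1 to 79.8 CPM at 12h, and in PD at 32.1 to 163 and 29.5 to 88.9 CPM. Of 12 marker lists, 6 did not overlap between the groups at 0h. PD was higher in alveolar type 2 cells, red blood cells, neutrophils (624 to 1245 CPM against 149 to 395), B and plasma cells (471 to 2131 against 224 to 320) and ciliated cells (267 to 343 against 182 to 242), and lower in capillary endothelium (1176 to 1538 against 1654 to 2293). Markers also moved with time. At 6h against 0h the median sum was lower for 10 of the 12 lists in PD and for 6 in GS. Ciliated markers in PD at 6h (170 to 259 CPM) lay below every PD library at 0h. At 12h against 0h the median sum was lower for 11 of the 12 lists in PD and for 6 in GS. In PD the median sum went from 42005 CPM at 0h to 24017 CPM at 12h for alveolar type 2 cells (17261 to 88368 at 12h), from 133 to 11.08 CPM for red blood cells (7.84 to 365 at 12h) and from 156 to 116 CPM for T and NK cells, whose highest 12h library (131 CPM) was below the lowest at 0h (146 CPM). In the same group it went from 324 to 169 CPM for ciliated cells, 711 to 434 for neutrophils and 4649 to 3098 for fibroblasts, with overlap between the times. In GS the alveolar type 2 median went from 8388 to 12153 CPM that of macrophages from 1674 to 2220, that of ciliated cells from 203 to 146 and that of T and NK cells from 223 to 173 CPM, and no list was without overlap. The part of these shifts in the values of the members was not tested. In bulk tissue, fewer cells of a type and less RNA per cell cannot be told apart.

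Members rose early in GS. A gene was called where edgeR's quasi-likelihood test, with pig as a block, gave a Benjamini-Hochberg adjusted p under 0.05 over all genes tested and a fold change of at least 2. At 6h against 0h, 11 of 41 members were called higher and 0 lower, where 5.5% of all genes tested were called higher and 5.56% lower. The 11 were GNL3, DDX21, NOB1, PPAN, RRS1, DDX18, NOLC1, NOP56, DKC1, DDX56 and UTP15. At 12h against 0h, 16 members were called higher and 0 lower, where 6.99% of all genes were called higher and 8.66% lower. The 16 held all 11 of the 6h calls and NOP58, NPM3, PNO1, NIP7 and TSR1. Without the fold threshold, 25 members passed upward and 1, DIMT1, downward at 6h (13.6% of all genes upward), and 29 upward and DIMT1 downward at 12h (17.6% of all genes upward). The median log2 fold change of the members was 0.66 at 6h and 0.81 at 12h, and that of all genes was -0.053 and -0.076. At 6h 33 members had a log2 fold change above 0 (46.2% of all genes) and at 12h 34 (45.7%). DESeq2 called 13 members higher at 6h (6.32% of all genes) and 16 at 12h (8.29%). Since GS results may have been in view when the names were chosen, these shares are a description. Groups of libraries did not overlap for 20 members higher at 6h (5.68% of all genes) and 21 at 12h (6.57%), and 28 members were higher in every pig at 6h (17.6%) and 28 at 12h (18.4%).

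The pigs differed in the size and timing of the change, and at 6h in PD also in its direction. The median log2 ratio of the 41 members to the same pig's 0h biopsy was 0.613 ± 0.219 at 6h and 0.837 ± 0.366 at 12h in GS (mean of the pig medians ± SD, n = 5), and lay above 0 in all 5 pigs at both times. In GS pigs 9 and 77, 28 and 29 of 41 members were highest at 6h, while in pigs 17, 44 and 55 the count highest at 12h was 35, 28 and 32. In PD the median was 0.394 ± 0.695 at 6h (SD, n = 4), with 1.42 in pig 4 and -0.13 to 0.15 in the other 3 pigs. By 12h it stood at 1.70 ± 0.451 in PD, with 1.08 in pig 2 as the lowest and 2.11 in pig 4 as the highest. Between 26 and 39 members were highest at 12h in each of the 4 PD pigs. Counts by time of the highest value were not taken over all genes. Whether this timing is particular to the members therefore cannot be read from them.

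**Figure D1:**
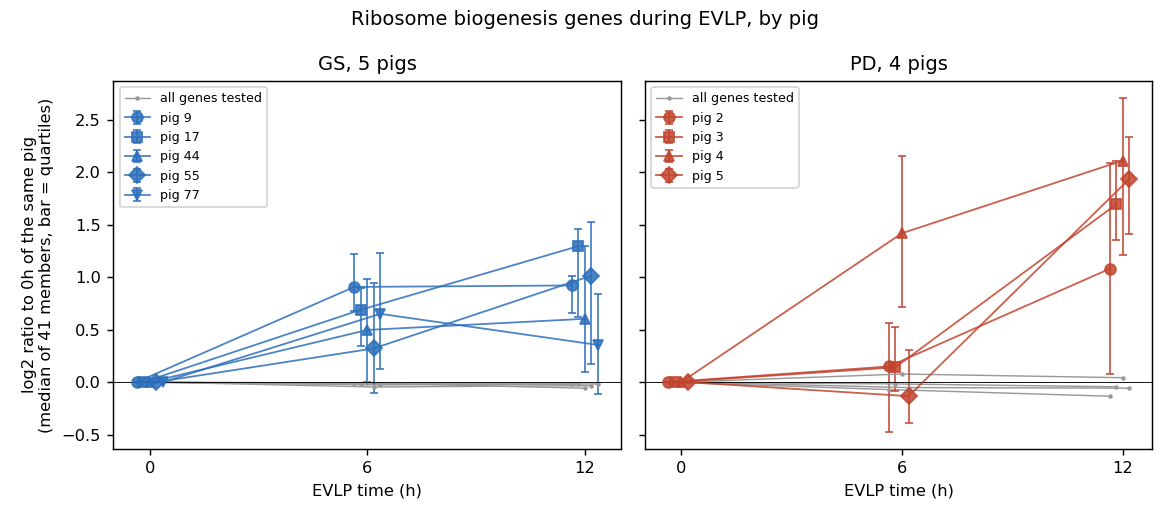
Median log2 ratio of the 41 members to the 0h biopsy of the same pig, against EVLP time in hours, in GS (left) and PD (right); bars are the quartiles over members and grey lines the median of all genes tested. All GS pigs lie above 0 at 6h, while in PD only pig 4 lies well above 0 at 6h (1.42) and all 4 pigs lie between 1.08 and 2.11 at 12h.

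The members were also summed in CPM, the counts scaled to the size of the library, where the most abundant members weigh most. The sums did not follow the medians in every pig. In PD pig 5 at 6h the sum was above its 0h value, while the median log2 ratio was -0.134. Values by library are listed for GS in the order of pigs 9, 17, 44, 55 and 77, and for PD in the order of pigs 2, 3, 4 and 5, here and in what follows. In GS the sum was 2072, 1347, 1629, 1722 and 1728 CPM at 0h, 4257, 2395, 2873, 2711 and 3337 CPM at 6h and 3913, 3268, 3505, 3915 and 2939 CPM at 12h. The PD libraries summed to 1658, 1779.7, 1677 and 1543 CPM at 0h, 2476, 2128, 5193 and 1688 CPM at 6h and 5188, 6261, 7809.7 and 7098 CPM at 12h. At 0h the ranges overlapped, and at 12h every PD library lay above every GS library.

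RNA polymerase I was represented by its largest subunit, POLR1A, and its second-largest, POLR1B, and neither passed the test in GS. POLR1B (ENSSSCG00000008098, chr3:43949968-43976072, minus strand) stood in GS at 21.1, 33, 22.3, 24.6 and 25.4 CPM at 0h, 37.5, 43.5, 19.1, 17.7 and 21.3 CPM at 6h and 41.5, 58.4, 23.9, 33.7 and 22.4 CPM at 12h. Its PD levels were 27.8, 28, 12.5 and 20.5 CPM at 0h, 19, 24.9, 58.9 and 19.4 CPM at 6h and 7.45, 73.6, 76.5 and 50.4 CPM at 12h. GS pigs 9 and 17 were higher than the rest at both later times and the groups overlapped, and in PD the 12h level was high in pigs 3, 4 and 5 and lowest of all in pig 2. The fitted log2 fold change was 0.38 (SE 0.19, adjusted p = 0.124) in GS at 12h and 0.92 (SE 0.62, 0.55 to 1.64 when any 1 pig was left out) in PD at 12h. POLR1A stood at -0.072 (SE 0.17, adjusted p = 0.753) in GS on the same scale and at 0.75 (SE 0.36) in PD at 12h against 0h.

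The box C/D snoRNPs, which methylate ribosomal RNA, were represented by the methyltransferase FBL and the core proteins NOP56 and NOP58. All 3 passed the adjusted p upward in GS at 6h and at 12h (13.6% and 17.6% of all genes), and 2 of 3 were called at 12h (6.99%). NOP56 (ENSSSCG00000027676, chr17:32960099-32965370, minus strand) was at 93.9, 70.0, 84.9, 95.7 and 84.4 CPM in GS at 0h, 184, 127, 213, 189 and 243 at 6h and 126, 183, 257, 269 and 213 at 12h. In PD the NOP56 level was 148, 161, 253 and 147 CPM at 0h, 292, 184, 452 and 128 at 6h and 771, 431, 539.8 and 728 at 12h. Every GS library after perfusion lay above every 0h library, and in PD this held at 12h but not at 6h, where pig 5 was below all 4 of the 0h libraries. NOP56 rose in GS by a log2 fold change of 1.12 (SE 0.16, adjusted p = 0.000709) at 6h and 1.23 (SE 0.17, adjusted p = 0.000246) at 12h, and its PD value at 12h read 1.84 (SE 0.39). NOP58 rose by 1.20 and FBL by 0.64 at 12h in GS, and the PD values were 1.74 and 1.25. Introns of NOP56 and NOP58 host small nucleolar RNAs that have rows of their own on the same strand, and how shared reads were assigned is not given in the sources used here.

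Of the box H/ACA snoRNPs, which convert uridine to pseudouridine, the catalytic subunit DKC1 rose in GS and the subunit GAR1 did not pass. DKC1 (ENSSSCG00000012823, chrX:125218923-125229529, plus strand) was at 49.3, 27, 47.9, 48.3 and 45.6 CPM in GS at 0h, 107, 47.3, 109, 92.5 and 125 at 6h and 98.3, 75.7, 124, 139 and 96.6 at 12h. The corresponding PD values of DKC1 were 31.8, 30.2, 32.8 and 34.1 CPM at 0h, 35.7, 47, 114 and 38.1 at 6h and 259, 138, 167 and 233 at 12h. GS pig 17 was the lowest of its group at each time. DKC1 was higher in every GS pig at 6h than at 0h, and at 12h the groups did not overlap. In PD only pig 4 was far above its 0h level at 6h, and all 4 libraries at 12h lay above all PD libraries of the earlier times. The log2 fold change was 1.10 (SE 0.14, adjusted p = 0.000409) and 1.27 (SE 0.14, adjusted p = 8.8e-05) in GS at 6h and 12h, and 0.77 (SE 0.40) and 2.63 (SE 0.42) in PD. GAR1 stood at 0.05 (SE 0.16, adjusted p = 0.817) in GS and 1.38 (SE 0.34) in PD at 12h.

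Among the members, the nucleolar phosphoproteins and chaperones had the highest medians of any role in both groups. The median log2 fold change at 12h was 1.28 over 4 members in GS and 2.67 in PD. In GS the box C/D snoRNPs were next at 1.20, and NPM1, a gene of this role that was kept apart, stood at 0.73. The first place in GS depended on keeping NPM1 apart. DDX21 (ENSSSCG00000010247, chr14:72039996-72063720, plus strand), an RNA helicase that links transcription and processing of ribosomal RNA, was at 164, 115, 111, 105 and 125 CPM in GS at 0h, 545, 297, 287, 287 and 407 at 6h and 452, 457, 402, 504 and 321 at 12h. For PD the DDX21 levels were 92.8, 128, 30.5 and 64.7 CPM at 0h, 197, 207, 651 and 149 at 6h and 133, 752, 964 and 786 at 12h. GS libraries after perfusion were all above those at 0h. In PD the 12h library of pig 2 was far below the other 3 and barely above the highest 0h library, and pig 4 started from the lowest level. DDX21 rose in GS by 1.52 (SE 0.16, adjusted p = 0.000153) at 6h and 1.77 (SE 0.16, adjusted p = 4.48e-05) at 12h on the log2 scale, the highest of all members at 12h. Its PD log2 fold change was 1.69 (SE 0.66) at 6h and 2.82 (SE 0.69) at 12h. NPM3 (ENSSSCG00000010568, chr14:112819393-112821368, minus strand), a nucleoplasmin-family chaperone, was in GS at 4.11, 5.25, 5.53, 4.66 and 4.77 CPM at 0h, 9.52, 7.9, 9.87, 8.38 and 11.2 at 6h and 8.26, 13.1, 11, 20.3 and 6.1 at 12h. Levels of NPM3 in PD were 10.4, 13, 20.3 and 12.7 CPM at 0h, 15.8, 11, 57.5 and 6.76 at 6h and 87.3, 81.7, 98.7 and 106 at 12h. The 4 PD libraries at 12h lay within a narrow range above all other libraries, while at 6h only pig 4 had left the range of 0h by far and pigs 3 and 5 were below their own start. NPM3 rose in GS at 12h by 1.18 (SE 0.25, adjusted p = 0.00342), and in PD its 2.83 (SE 0.48) was the highest member value.

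Nucleolin (NCL, ENSSSCG00000016275, chr15:132163002-132174220, minus strand), which binds the precursor RNA and ribosomal chromatin, is among the most abundant nucleolar proteins. The GS levels of NCL were 789, 299, 516, 555 and 581 CPM at 0h, 1437, 520.3, 918, 846 and 1017 at 6h and 1423, 652, 1125, 983 and 1030.4 at 12h. PD libraries held 218, 257, 89 and 214 CPM of NCL at 0h, 208, 419.6, 684 and 345 at 6h and 408, 1116, 1209 and 807 at 12h. Each GS pig stood higher at both later times than at 0h but started from a different level, so that the groups of libraries overlapped, and the lowest PD value was the 0h library of pig 4. NCL rose by 0.77 (SE 0.099, adjusted p = 0.000412) at 6h and 0.92 (SE 0.1, adjusted p = 8.14e-05) at 12h in GS, under the fold threshold, and the PD value at 12h was 2.03 (SE 0.47). NOLC1, a snoRNP chaperone, rose by 1.39 in GS and stood at 2.52 in PD.

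The small subunit processome, which assembles on the nascent precursor, was split. Of its 10 members, 4 passed the adjusted p upward in GS at 12h (UTP15, EMG1, UTP4 and NOP14) and 0 downward, where 17.6% of all genes passed upward and 20.8% downward, and the other 6 (HEATR1, PDCD11, UTP20, RRP9, WDR75 and WDR43) did not pass. The median of the 10 was 0.074 in GS and 1.41 in PD at 12h. EMG1 (ENSSSCG00000026812, chr5:63745476-63751469, minus strand), a methyltransferase of small subunit ribosomal RNA, was at 21.2, 25.3, 28.3, 27.4 and 26.7 CPM in GS at 0h, 31.7, 38.3, 48.7, 42.3 and 51.7 at 6h and 27.9, 58.5, 52.7, 69.7 and 39.6 at 12h. Its PD levels came to 70.1, 80.5, 94.8 and 89.8 CPM at 0h, 121, 75.6, 155 and 55.8 at 6h and 491, 170.5, 253 and 303 at 12h. PD stood above GS already at 0h with no overlap, and the highest value was that of PD pig 2 at 12h. EMG1 rose in GS by 0.87 (SE 0.16, adjusted p = 0.00131) at 12h and was 1.77 (SE 0.40) in PD. UTP15 and UTP4, 2 of the factors that couple the processome to transcription, rose by 1.04 (SE 0.14) and 0.81 (SE 0.18) in GS and stood at 1.87 and 1.98 in PD.

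HEATR1 (ENSSSCG00000010145, chr14:54821171-54869857, plus strand), a large scaffold of the processome, separated the GS pigs. Levels in GS were 30.4, 46.5, 27.1, 23.8 and 25.7 CPM at 0h, 54.4, 58.9, 13, 14.2 and 15.4 at 6h and 60.2, 61.3, 11.4, 24.1 and 12.3 at 12h. In PD, HEATR1 was at 20.3, 23.5, 8.72 and 20.2 CPM at 0h, 7.4, 23.6, 64.6 and 15.8 at 6h and 13.8, 112, 85 and 55.5 at 12h. Pigs 9 and 17 of GS stood higher at both later times than at 0h, pigs 44 and 77 were lower at both, and pig 55 was lower at 6h and back at its start at 12h. The libraries of GS pigs 9 and 17 were also the shallower ones, at 26335584 to 41802541 counts against 51708598 to 67522703, and the part of depth in this was not tested. The fitted log2 fold change at 12h was -0.26 (SE 0.29, adjusted p = 0.489) in GS and 1.41 (SE 0.64) in PD. In PD pigs 3, 4 and 5 were higher and pig 2 lower than at 0h, and the value ranged from 1.06 to 2.15 when any 1 pig was left out.

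WDR75 (ENSSSCG00000016036, chr15:93981215-94026707, plus strand), a processome protein of the same early module, had the same split in GS, with 44.5, 33, 34.9, 40.3 and 39.2 CPM at 0h, 83.4, 47.4, 27.9, 22.9 and 30.1 at 6h and 79.9, 47.1, 31.4, 39.1 and 27.1 at 12h. The WDR75 values in PD were 70.2, 77.4, 48 and 43.9 CPM at 0h, 59.2, 34.6, 127 and 26.9 at 6h and 22, 101, 159.6 and 117 at 12h. GS pigs 9 and 17 were above their 0h level at both times, and pigs 44, 55 and 77 below it, pig 55 only slightly so at 12h. Its log2 fold change was 0.055 (SE 0.21, adjusted p = 0.856) in GS and 0.59 (SE 0.57) in PD at 12h. The PD value ranged from 0.20 to 1.08 when any 1 pig was left out. UTP20 (ENSSSCG00000000869, chr5:82813714-82913155, minus strand), a large protein of the processome, was at 22, 32.9, 18.2, 18.3 and 20.1 CPM in GS at 0h, 30.6, 35.4, 11.7, 17 and 12.3 at 6h and 48.7, 23.9, 13.5, 12.3 and 15.6 at 12h. UTP20 in PD stood at 27.1, 33.1, 14.7 and 20.3 CPM at 0h, 28.8, 35.2, 36.4 and 20.8 at 6h and 10.9, 69.7, 90.8 and 38 at 12h. Only GS pig 9 was higher at 12h than at 0h, and in PD pigs 3, 4 and 5 were. The log2 fold change of UTP20 was -0.17 (SE 0.24, adjusted p = 0.582) in GS and 0.94 (SE 0.52, 0.41 to 1.48 when any 1 pig was left out) in PD. WDR43 (ENSSSCG00000008534, chr3:110231955-110365062, minus strand) was close to the counting floor, with 0 to 45 counts and at most 1.03 CPM in a library. Its log2 fold change at 12h was -0.17 (SE 0.50, adjusted p = 0.808) in GS and -1.50 (SE 0.66) in PD, where the 12h library of pig 2 held 0 counts, and its row overlapped 4 other rows on the same strand, small nucleolar RNAs among them.

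Late maturation of the small subunit gave 3 calls among 7 members in GS at 12h (6.99% of all genes called higher), and the median log2 fold change of these 7 was 0.92, beside 1.75 for PD. NOB1 (ENSSSCG00000002753, chr6:17233858-17245451, plus strand), the endonuclease that makes the final cut of small subunit ribosomal RNA, was at 18.3, 15.8, 21.6, 22.1 and 21.5 CPM in GS at 0h, 57.1, 37.3, 62.1, 44.3 and 56.8 at 6h and 41.2, 65.3, 78.8, 92.2 and 42.4 at 12h. PD levels of NOB1 were 21.3, 20.2, 30.9 and 25.6 CPM at 0h, 28.5, 30.8, 62.8 and 21.1 at 6h and 284, 80.6, 79.5 and 147 at 12h. The GS groups did not overlap, and in PD pig 2 reached by far the highest level at 12h. NOB1 rose in GS by 1.37 (SE 0.20, adjusted p = 0.000735) at 6h and 1.63 (SE 0.20, adjusted p = 0.000165) at 12h, and the PD values were 0.50 and 2.53. TSR1 (ENSSSCG00000038534, chr12:48403850-48416701, minus strand), a GTPase-like factor of the late precursor particle, was at 24.4, 20.7, 19.7, 17.2 and 18.7 CPM in GS at 0h, 66.9, 45.8, 27.8, 29.7 and 34.3 at 6h and 63.7, 59.1, 29.9, 50.5 and 22 at 12h. TSR1 reached 35.9, 36.6, 93 and 30.4 CPM at 0h, 65.4, 41.7, 164 and 25.5 at 6h and 153, 163, 238 and 153 at 12h in PD. PD pig 4 was above the other PD pigs at each time, and GS pig 77 was back near its start at 12h. The log2 fold change of TSR1 at 12h was 1.04 (SE 0.20, adjusted p = 0.00194) in GS, near the fold threshold, and 2.02 (SE 0.37) in PD.

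DIMT1 (ENSSSCG00000031990, chr16:41098341-41111229, minus strand), a dimethyltransferase of small subunit ribosomal RNA, went the other way in GS. It was at 10.3, 7.40, 8.35, 9.57 and 9.996 CPM at 0h, 6.75, 5.24, 4.53, 6.48 and 4.71 at 6h and 12.3, 3.31, 3.57, 3.96 and 5.08 at 12h. In PD the levels of DIMT1 were 7.59, 8.11, 0.459 and 3.67 CPM at 0h, 3.54, 4.58, 5.18 and 4 at 6h and 0.432, 5.52, 7.17 and 3.89 at 12h. All 5 GS pigs were lower at 6h than at 0h with no overlap, and at 12h pigs 17, 44, 55 and 77 were lower and pig 9 was higher. DIMT1 fell, with a log2 fold change of -0.74 (SE 0.24, adjusted p = 0.034) at 6h and -0.88 (SE 0.24, adjusted p = 0.0125) at 12h, under the fold threshold. Its PD value of -0.26 (SE 0.88) comes from low counts, among them 8 in the 0h library of pig 4 and 4 in the 12h library of pig 2, and it was 0.66 without pig 2. The other members of this step are PNO1, the RNA-binding partner of NOB1, the atypical kinase RIOK1, the export factor RRP12 and the assembly factor BYSL. They rose by 1.15, 0.92, 0.61 and 0.50 in GS at 12h, and stood at 1.67, 1.83, 1.75 and 1.53 in PD.

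In large subunit assembly, 6 of 11 members were called higher in GS at 12h (6.99% of all genes) and 10 passed the adjusted p upward (17.6% of all genes), with NOC3L as the exception. DDX18 (ENSSSCG00000015712, chr15:23425669-23442980, plus strand), an RNA helicase of the early large subunit, was at 65.7, 52.4, 37.8, 46.9 and 46.8 CPM in GS at 0h, 152, 96.6, 91.8, 118 and 134 at 6h and 137, 131, 136, 159 and 131 at 12h. Libraries of PD held 81.3, 79.9, 57.1 and 52.2 CPM of DDX18 at 0h, 219.6, 123, 300.5 and 114 at 6h and 91.3, 325, 435 and 359 at 12h. It was 1 of 4 members (with DKC1, DDX21 and UTP15) whose PD libraries at 6h all lay above those at 0h, where 5.85% of all genes did, and in pig 2 it was lower at 12h than at 6h. DDX18 rose in GS by 1.23 (SE 0.13, adjusted p = 0.000179) and 1.46 (SE 0.13, adjusted p = 4.48e-05) at 6h and 12h, and its PD values were 1.41 (SE 0.48) and 2.09 (SE 0.50). GNL3 (ENSSSCG00000011449, chr13:34814901-34828517, plus strand), the nucleolar GTPase nucleostemin, was at 35.5, 21.9, 22.6, 25 and 24.2 CPM in GS at 0h, 125, 77, 61.3, 55.5 and 74.5 at 6h and 85.1, 108, 74.7, 92.3 and 56.5 at 12h. The level of GNL3 in PD was 73.8, 75.1, 67.4 and 44.7 CPM at 0h, 163, 74.3, 348 and 56.4 at 6h and 229, 315, 586 and 428 at 12h. PD stood above GS at 0h with no overlap, and at 6h PD pigs 3 and 5 were close to their start while pigs 2 and 4 stood higher. GNL3 rose in GS by 1.56 (SE 0.18, adjusted p = 0.000249) and 1.67 (SE 0.18, adjusted p = 8.14e-05), and stood at 1.02 (SE 0.46) and 2.53 (SE 0.48) in PD. The rows of GNL3, NCL, PPAN, DKC1 and TSR1 also overlap rows of small nucleolar RNAs. Of the other large subunit factors, PPAN and RRS1 rose by 1.51 and 1.47 in GS at 12h, the helicase DDX56 and the RNA-binding NIP7 by 1.19 and 1.15, and MRTO4, which holds the place of the ribosomal stalk, and EBNA1BP2 by 0.73 and 0.63. PES1 and WDR12, which form 1 complex with BOP1, rose by 0.70 and 0.84. BOP1 itself, which was kept apart, stood at 0.10 (SE 0.14, adjusted p = 0.593) in GS at 12h and did not pass. In PD the 11 members ranged from 0.76 for NOC3L to 2.53 for GNL3, with a median of 1.98.

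RNA cleavage and decay was represented by RPP40, a protein of the RNases P and MRP, and EXOSC5, a subunit of the RNA exosome. RPP40 (ENSSSCG00000000998, chr7:2987238-3005272, minus strand) was at 16.3, 8.46, 12.7, 14 and 11 CPM in GS at 0h, 23.3, 10.5, 12.8, 12.2 and 12 at 6h and 27.5, 11.9, 12.8, 12.6 and 10.1 at 12h. Its PD libraries stood at 10.5, 10.1, 15.8 and 9.62 CPM at 0h, 9.68, 14.1, 25.6 and 6.93 at 6h and 30.8, 36, 39.9 and 28.2 at 12h. GS pig 9 was above the other GS pigs at every time and the groups overlapped, whereas every PD library at 12h lay above every earlier PD library. The log2 fold change of RPP40 at 12h was 0.15 (SE 0.15, adjusted p = 0.445) in GS and 1.57 (SE 0.34) in PD. EXOSC5 rose by 0.80 (adjusted p = 0.0263) at 6h and 0.74 (adjusted p = 0.0305) at 12h in GS, under the fold threshold.

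**Figure D2:**
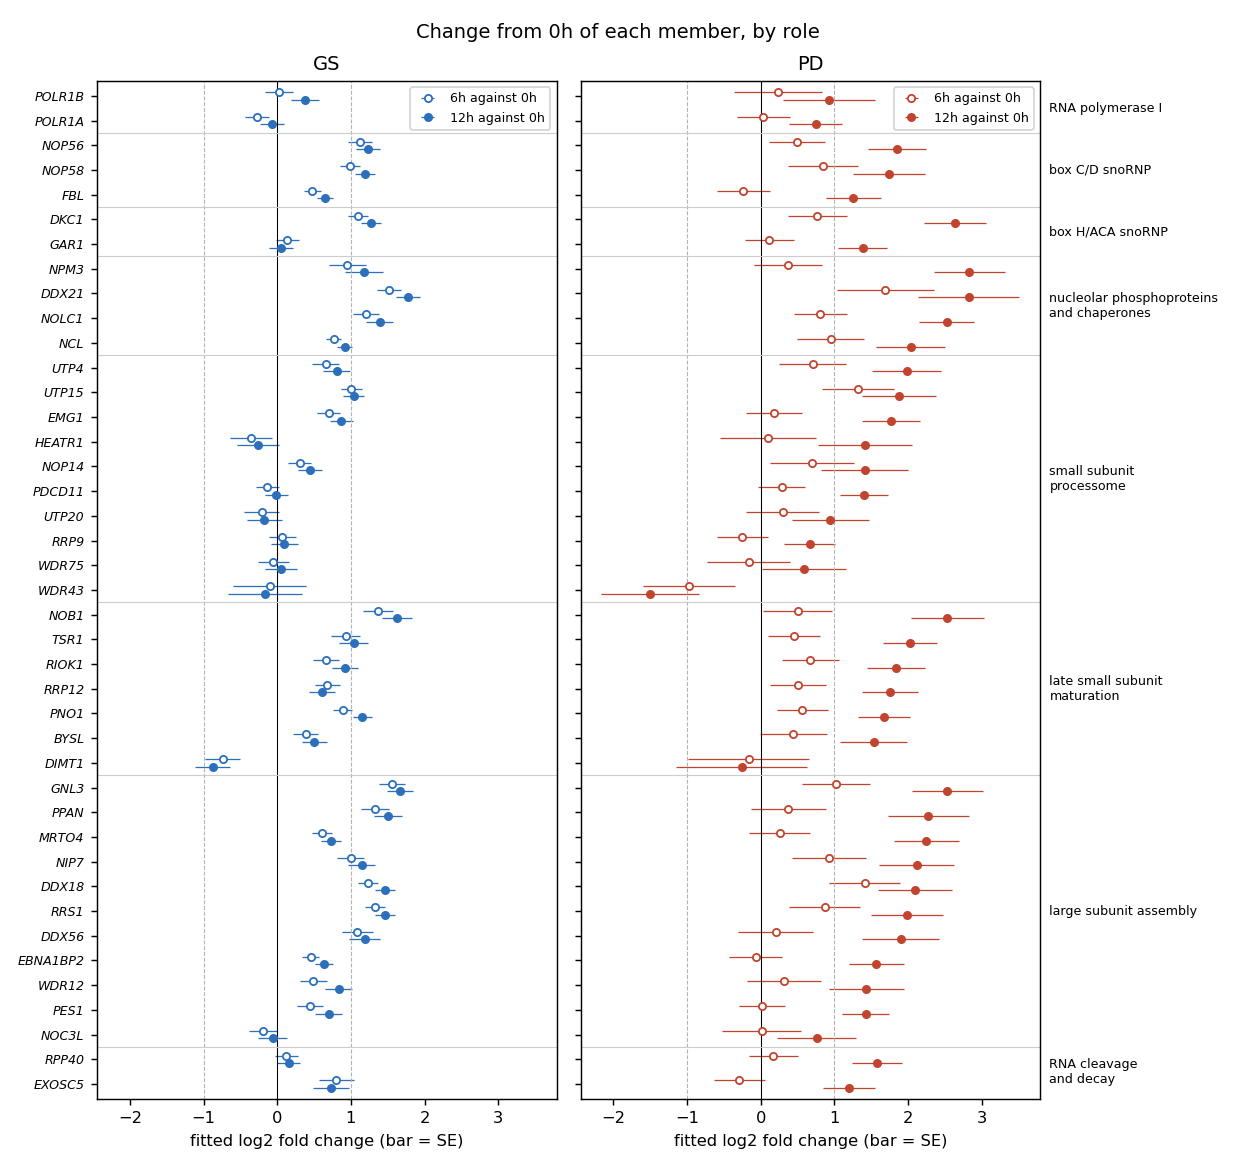
Fitted log2 fold change from 0h of each of the 41 members at 6h (open points) and 12h (filled points) in GS (left) and PD (right), with SE bars, grouped by role and ordered by the PD value at 12h; dashed lines mark a fold change of 2. In GS the open and filled points lie close together, and in PD most filled points lie to the right of the open ones.

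In GS the members differed less between 6h and 12h than from 0h. At 12h against 6h, edgeR called 0 of 41 members and 0 genes in all (0.0%), 0 members had an unadjusted p under 0.05 (4.74% of all genes), and DESeq2 called 0 members (0.00538% of all genes higher). The median log2 difference of the members was 0.14, that of all genes -0.0041. By pig it was -0.16, 0.44, 0.21, 0.59 and -0.25, so that the pigs went in both directions, and in pig 55 the median ratio to 0h was 0.32 at 6h and 1.01 at 12h. Of the 16 members with a log2 fold change of at least 1 at 12h in GS, all 16 had reached at least 50% of it at 6h, with a median of 86.8% and a range of 77.1 to 96.4%. In PD, 33 members had a log2 fold change of at least 1 at 12h, 3 of them had reached at least 50% of it at 6h, and the median share was 26.4%. These members were picked for a high 12h value, which enters both the choice and the share, and whether the shares differ was not tested.

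In PD at 6h against 0h, 0 of 41 members were called by edgeR, where 0.135% of all genes were called higher. At an unadjusted p under 0.05 there were 5 members (9.41% of all genes), and DESeq2 called 0 (2.05% of all genes higher). The median log2 fold change of the members was 0.37, with -0.025 over all genes, and it was 0.089 without pig 4. At 12h against 0h, 24 of 41 members were called higher and 0 lower, where 3.22% of all genes were called higher and 2.76% lower, and DESeq2 called 32 higher (8.77%). In a fit with only the 0h and 12h libraries, 0 members were called (0.0268% of all genes higher). There were 39 members above 0 (47.9% of all genes), and 30 members had no overlap upward (8.65%). Since 12h results of this group were treated as known when the members were chosen, nothing is read from these shares. The count depended on single pigs: it was 0 without pig 3 or without pig 5 (0.0% of all genes higher in each), 11 without pig 4 (1.5%) and 35 without pig 2 (11.8%). It was 34 without only the 12h library of pig 2, where 11.9% of all genes were called higher. The median log2 fold change moved less, from 1.74 to between 1.63 and 1.74 when any 1 pig was left out. The common biological coefficient of variation was 0.489 in PD and 0.259 in GS, so that a change of the same size had a larger error in PD.

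At 12h against 6h in PD the members stood higher in 39 of 41 cases (48.9% of all genes), with a median log2 difference of 1.18 beside -0.018 over all genes. edgeR called 0 members and 0.0% of all genes, 27 members had an unadjusted p under 0.05 (1562 of 15545 genes in all), and DESeq2 called 17 members, where it called 0.708% of all genes higher. In a fit of all 27 libraries edgeR did call members, as given in the closing section (1.08% of all genes higher). All 4 pigs were higher at 12h for 26 members (9.42% of all genes), and groups did not overlap for 14 (2.97%). By pig the median was 0.97 in pig 2, 1.46 in pig 3, 0.53 in pig 4 and 2.02 in pig 5. In pig 2, 28 members were higher, and in the other 3 pigs 39 or 40 were. Results of this interval were treated as known when the names were listed. The 6 rows named only by gene number, which are part of the same list, had a median of 0.97 at 12h against 6h in PD and of 0.16 in GS.

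**Figure D3:**
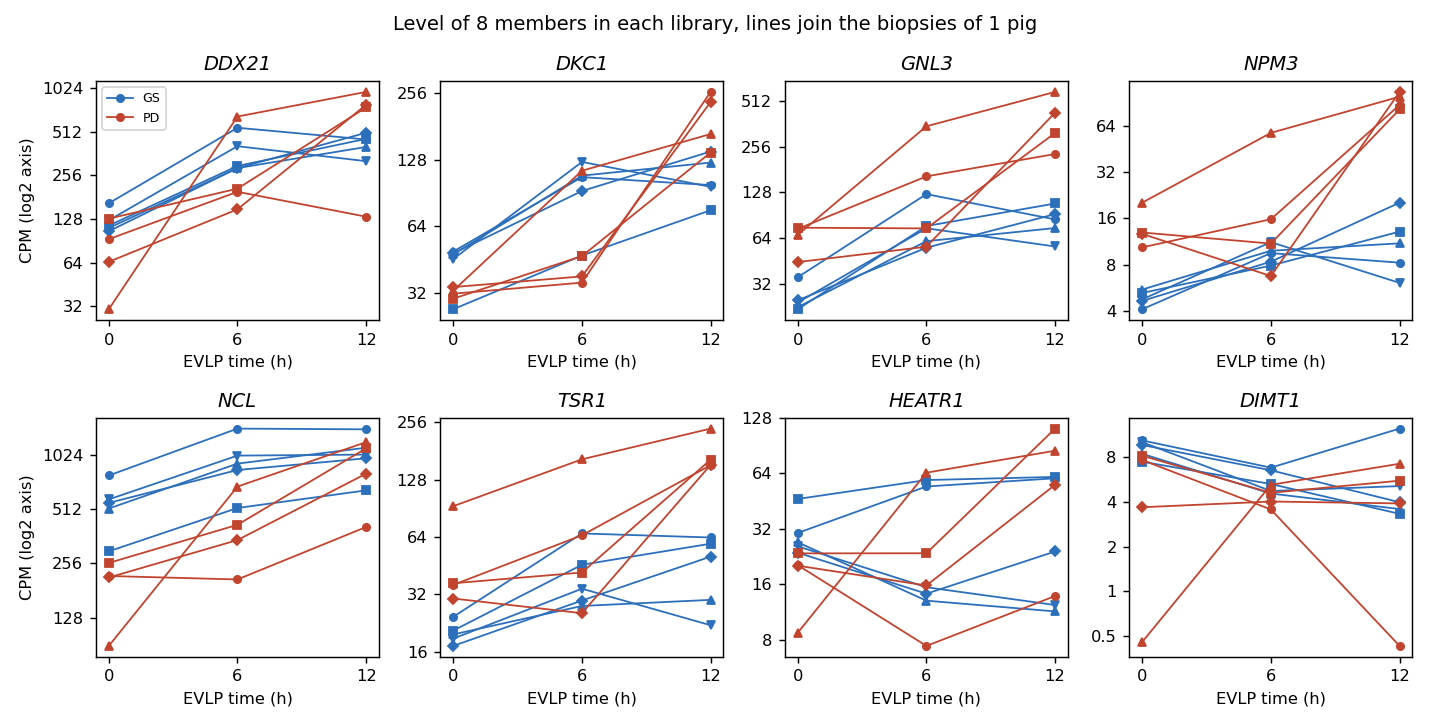
Level in CPM (log2 axis) of DDX21, DKC1, GNL3, NPM3, NCL, TSR1, HEATR1 and DIMT1 in each library against EVLP time in hours, with blue lines for GS pigs and red lines for PD pigs. The 12h values of PD pigs 3, 4 and 5 are the highest of their lines in every panel but DIMT1, and pig 2 (red circles) falls away from the other PD pigs at 12h in DDX21, NCL, HEATR1 and DIMT1.

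The changes were then set against each other between groups, as the difference of the change from 0h (PD minus GS) in a fit of all 27 libraries. At 6h the median difference over members was -0.19 log2 (-0.567 to -0.0295 when any 1 pig was left out), beside 0.022 over all genes. Of the 41 members, 26 were lower in PD, where 51.6% of all genes were higher. At 12h the median difference was 0.86, beside -0.0072 over all genes, and 40 of 41 were higher in PD (49.4% of all genes), with WDR43 as the exception. edgeR called 0 members and 0.0% of all genes at either time, with 2 members at 6h and 18 at 12h under an unadjusted p of 0.05, where 5.85% and 5.98% of all genes were. DESeq2 called 0 members at 6h and 3 at 12h (GAR1, PDCD11 and RPP40), where it called 0.0671% of all genes higher. Without PD pig 2, edgeR called 3 at 12h (NOP14, PDCD11 and RPP40), where 0.393% of all genes were called higher. PD values were treated as known when the members were chosen, so nothing is read from these counts. At 12h the changes of the pigs did not overlap between groups for 8 members (1.15% of all genes), namely RPP40, DKC1, GAR1, MRTO4, BYSL, RRP12, NPM3 and PDCD11. At 6h they did not overlap downward for EXOSC5, FBL, EBNA1BP2 and PPAN (1.25%). The widest differences at 12h were 1.64 (SE 0.69) for HEATR1 and -1.37 (SE 0.81) for WDR43. PDCD11, a processome protein that binds the precursor along its length, stood at -0.015 (SE 0.16) in GS and 1.40 (SE 0.33) in PD.

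Over the members, the change in GS at 12h had a correlation of -0.341 with log2 exon length (n = 41 genes, Pearson), and that in PD -0.196, beside -0.098 and -0.0036 over all genes with a length. The difference PD minus GS at 6h had a correlation of 0.596 with length over the members and of 0.321 over 13047 genes. For PD at 12h against 6h the correlation was -0.383 over the members and -0.248 over 12417 genes. These genes share libraries and are not independent, and the part of length in the differences was not tested.

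Before perfusion the groups already differed at many genes. At 0h, PD against GS, 8 members were called higher (EMG1, NPM3, NIP7, GNL3, TSR1, EXOSC5, FBL and NOP56) and 2 lower (NCL and NOP14), where 15.2% of all genes were called higher and 13.9% lower. In all, 23 members were above 0 (50.1% of all genes), and without the fold threshold 14 passed upward and 4 downward (21.3% and 19.3% of all genes). EMG1 was highest, at 1.75 (SE 0.17, adjusted p = 2.44e-05), and NOP14 the lowest, at -1.79 (SE 0.30, adjusted p = 0.000709). The PD libraries at 0h held only 16 to 38 counts of NOP14. NCL stood at -1.46 (SE 0.34, adjusted p = 0.00489), with every PD library below every GS library. The libraries did not overlap for 12 members upward (16.3% of all genes) and 6 downward (17.9%), and the median difference was 0.24, beside 0.0018 over all genes. Over all genes the 0h difference had a correlation of -0.441 with log2 exon length (12686 genes) and over the members of -0.243 (n = 41), and the sums of 6 of 12 marker lists did not overlap either, as given above. Their part in the 0h difference was not tested.

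Levels of the members were set against each other per exon length, as mean CPM per kilobase over all 27 libraries. NCL was the highest, at 249.6, followed by EMG1 at 97.4, NOP56 at 96.2, DDX21 at 66.8, FBL at 58.1 and DKC1 at 55.1. These means pool groups that differed, and the place of EMG1 came from PD. EMG1 stood at 86.4 per kilobase in PD at 0h, above NCL at 70.2, and at 313.6 in PD at 12h, against 26.6 in GS at 0h and 51.2 in GS at 12h. In GS at 12h it was below DDX21 at 88.3, NOP56 at 81.6, DKC1 at 66.5 and PPAN at 55.9. The first place of NCL holds among the members only, since NPM1 was kept apart. In PD, NPM1 stood at 264 per kilobase at 0h and 550 at 12h, above NCL at 70.2 and 320. In GS it was below NCL, at 116 against 198 at 0h and 194 against 376 at 12h. At the low end of the means over all libraries were DIMT1 at 2.44, UTP20 and NOC3L at 2.40, NOP14 at 1.67 and WDR43 at 0.101. Of the 41 members, 26 overlap another row of the table, 15 of them on the same strand.

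The rest of the pathway was taken from a list of 132 further ribosome biogenesis genes, of which 127 were tested in both groups. In GS, 9 were called higher at 6h (5.5% of all genes tested) and 17 at 12h (6.99%) and 0 lower at either, with medians of 0.22 and 0.31 log2. In PD, 0 were called at 6h and 21 higher at 12h (0.135% and 3.22% of all genes), with medians of 0.10 and 1.0. Without pig 3 or without pig 5, 0.0% of all genes were called higher in PD at 12h, so the 21 calls fell to 0. At 12h against 6h in PD 124 of 127 stood higher (48.9%), with a median of 0.75. This list too was chosen with earlier results of these data known. Its counts, shares and medians are therefore a description, and nothing is read from those of PD. URB2, a large subunit assembly factor, was highest in both groups, at 1.80 (SE 0.27, adjusted p = 0.000469) in GS and 3.14 (SE 0.55) in PD at 12h. TAF1D, of the RNA polymerase I selectivity factor, rose by 1.47 (SE 0.15, adjusted p = 6.08e-05) in GS, and ZNHIT3, of snoRNP assembly, had a PD value at 12h against 0h of 2.57 (SE 0.40). TRMT112, which was close to the counting floor with a mean of 0.316 CPM, and EXOSC7 were the lowest, at -1.01 (adjusted p = 0.123) and -0.85 (adjusted p = 0.00111) in GS and -0.88 and -0.65 in PD.

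MYC, the transcription factor named above, was high by 6h in both groups. Its GS levels were 82.6, 39.5, 93.5, 87.6 and 77.4 CPM at 0h, 138, 77.5, 330.2, 476 and 411 at 6h and 127, 106, 315, 461 and 441 at 12h. MYC in PD was at 52.2, 43.5, 13.4 and 36.3 CPM at 0h, 211, 273, 206 and 213 at 6h and 131, 173, 245 and 308 at 12h. In every pig both later libraries were above that pig's own 0h library, and the 4 PD libraries at 6h lay close together. MYC rose in GS by 1.62 (SE 0.25, adjusted p = 0.000911) at 6h and 1.66 (SE 0.25, adjusted p = 0.000442) at 12h. In PD its log2 fold change was 2.69 (SE 0.45) at 6h, 2.62 (SE 0.45) at 12h and -0.074 (SE 0.42) between 6h and 12h. At 0h the difference of MYC, PD against GS, was -1.03 (SE 0.36, adjusted p = 0.0367). The log2 ratio of MYC to 0h at 12h was 0.62, 1.42, 1.75, 2.39 and 2.51 in the GS pigs, in the order given, where the medians of the members were 0.92, 1.29, 0.60, 1.01 and 0.35. In the PD pigs it was 1.33, 1.99, 4.18 and 3.08, with medians of the members of 1.08, 1.69, 2.11 and 1.94. The pig with the highest MYC ratio had the lowest member median in GS and the highest in PD. Whether MYC has a part in the change of the members was not tested.

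**Figure D4:**
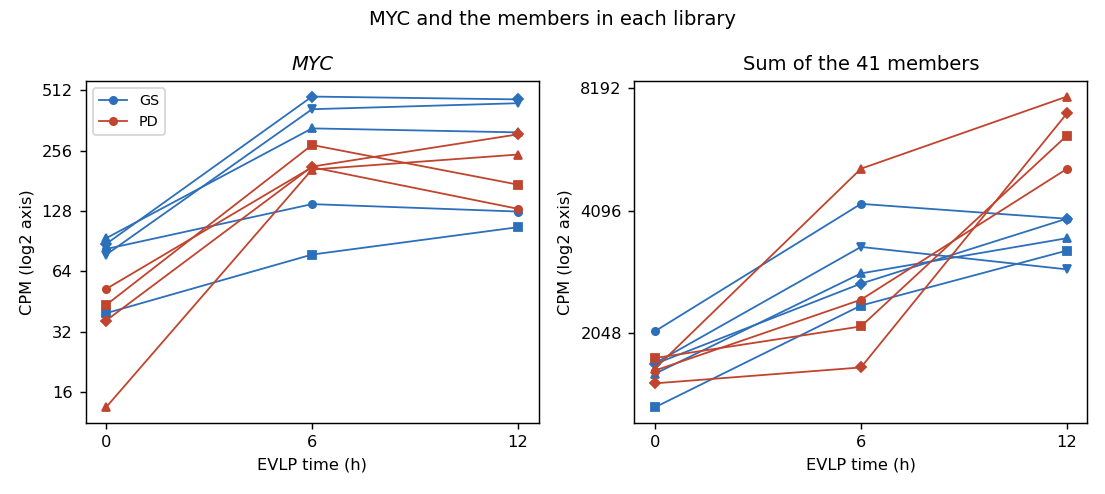
MYC (left) and the sum of the 41 members (right) in CPM on log2 axes in each library, against EVLP time in hours, with blue lines for GS pigs and red lines for PD pigs. MYC is above its 0h level in every pig at 6h, while the sum of members is above every GS library in PD pig 4 alone at 6h and in all 4 PD libraries at 12h.

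The 10 members with CACGTG in the promoter had a median log2 fold change at 12h of 0.525 in GS and 1.62 in PD, and the other 31 had 0.87 and 1.77. At 6h the 10 had 0.48 in GS and 0.53 in PD, and the other 31 had 0.70 and 0.31. Of the 10 genes of the MYC network, MYC was the only one called higher in GS at 12h (6.99% of all genes), while MNT, a repressor of the network, stood at 0.80 (adjusted p = 0.0064) and MXI1 at -0.60 (adjusted p = 0.0116). In PD at 12h MYC and MYCN were the highest of the 10, MYCN at 1.93 (SE 0.85), and MXI1 and MXD3 the lowest, at -1.39 (SE 0.37) and -0.87 (SE 0.54). Targets of p53, a factor that is known to respond to failed ribosome assembly, were 12 genes, of which 2 were called higher in GS at 12h (6.99% of all genes) and 2 in PD (3.22%). These were CDKN1A, an inhibitor of the cell cycle, at 1.59 (SE 0.29, adjusted p = 0.00131), and the stress gene SESN2, at 1.95 (SE 0.28, adjusted p = 0.000314), with 2.09 and 2.23 in PD. The lowest were RRM2B and TP53I3 in GS, at -0.82 (adjusted p = 0.0172) and -0.77 (adjusted p = 0.06), and SESN1 and XPC in PD, at -0.88 and -0.83. The median of the 12 was 0.29 in GS and 0.24 in PD.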

How the data were processed

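Stranded mRNA libraries were made from total RNA of lung biopsies and sequenced on a NextSeq 500. Per the labels and methods, the authors demultiplexed with bcl2fastq 2.2.18.12, trimmed with cutadapt 1.15, aligned with TopHat2 2.0.14 to Sscrofa11.1 and deposited raw read counts per gene. featureCounts of Subread 1.6.0 is named in the processing notes, and its handling of strand and shared reads is not given in the sources used here. The extract protocol names 2 RNA isolation methods without saying which library had which. The authors tested with DESeq2 1.18.1. Library totals were 14650700 to 67522703 counts.

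From the deposited counts, genes were kept by edgeR's filterByExpr and scaled by TMM, and tested with edgeR 4.0.16 (quasi-likelihood, robust, two-sided) in R 4.3.3 with limma 3.58.1. This left 18594 genes in GS, 15545 in PD, 17884 in all 27 libraries and 16477 at 0h. GS and PD were fitted separately with time and pig, the difference PD minus GS in 1 fit, and 0h alone. P-values were Benjamini-Hochberg adjusted over the genes tested, except where a p is called unadjusted. CPM used the TMM-scaled library size, and ratios to 0h were taken after adding 0.5 counts. DESeq2 1.42.0 was an alternative, beside other scaling, no filter, no pig, other sets of libraries and each pig left out. The tests were tried on simulated counts first.

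Each pig gave all 3 biopsies, so samples pair by animal. Deviations from the group means of 2 biopsies of the same pig had a mean correlation of 0.521 in GS (0.347 to 0.734) and of 0.114 in PD (-0.247 to 0.454), and of different pigs -0.118 and -0.0342. Pigs are the replicates.

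The members, the lists of other ribosome biogenesis genes, MYC network, p53 targets and cell type markers, the roles and the tests were chosen with earlier results of these data known. Values in every library are given for the member with the most CPM in each role (a rule of choice that takes no account of length), for the 3 highest and 3 lowest at 12h of each group, and for MYC. Genes named from the other lists were picked as the 2 highest and 2 lowest. Other members are named by their group, and where a single one is picked out otherwise, PDCD11 for example, it was chosen after their values were seen. Promoters were read from the RefSeq genome of Sscrofa11.1 at the gene starts of the count table, for all 41 members and 20273 protein-coding genes in it, and exon lengths from the RefSeq annotation. Matplotlib 3.10.9 drew the plots.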

Additional observations from a re-analysis of the deposited data

Results flagged for a closer look

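In each group of 4 or 5 libraries at 1 time, the highest and the lowest library were compared with the rest by Dixon's ratio, for the 17 members with values in every library, the median of the members and MYC. Of 114 groups checked, 12 held a library that stood apart, and chance gives about 1 in 20. All values here are log2 CPM. In GS, pig 17 was low at 0h for DKC1, at 4.76 beside 5.51 to 5.62 in the other pigs. Pig 9 was high at 0h for GNL3, at 5.15 beside 4.45 to 4.65, at 6h for the median of all members, at 5.61 beside 4.89 to 5.08, and for RPP40 at 6h, at 4.55 beside 3.40 to 3.68, and at 12h, at 4.78 beside 3.33 to 3.68. Pig 55 was high at 12h for DDX18, at 7.31 beside 7.03 to 7.09. In PD, pig 4 was high at 0h for NOP56, at 7.98 beside 7.20 to 7.33, and for TSR1, at 6.54 beside 4.93 to 5.20, and low at 0h for HEATR1, at 3.13 beside 4.34 to 4.56. Pig 4 was also high at 12h for TSR1, at 7.89 beside 7.26 to 7.35. The 12h library of pig 2, with the fewest counts and genes, was low for DDX21, at 7.05 beside 9.56 to 9.91, and for WDR43, at -4.21 (0 counts) beside -1.40 to -1.06.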

How the results depend on the processing

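Without the fold threshold 26 members passed at 6h in GS (13.6% of all genes upward, 14.9% downward), 30 at 12h (17.6% and 20.8%) and 18 at 0h (21.3% and 19.3%). In PD at 6h, 1 member (DDX18) was called in a fit of all 27 libraries (1.89% of all genes higher) and 1 (DDX18) without the 12h library of pig 2 (1.3%), a setting chosen after seeing the data. With only the 2 times compared in the fit, 0 members were called in PD at 12h (0.0268% of all genes higher). At 12h against 6h in PD, 17 were called by DESeq2 and 21 in the fit of all 27 libraries (1.08% of all genes). For PD minus GS at 12h DESeq2 called 3. The cause of these differences was not tested.

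Leaving out each pig in turn moved the count of members called from 9 to 14 in GS at 6h, 13 to 18 in GS at 12h, 0 to 35 in PD at 12h, 7 to 13 at 0h and 0 to 3 in PD minus GS at 12h. Of all genes, 7.2 to 11.4%, 11.6 to 18.8%, 0.0 to 24.4%, 26.8 to 29.5% and 0.0 to 0.813% were called in either direction in the same fits. The count of members was 0 in every case in GS at 12h against 6h, PD at 6h, PD at 12h against 6h and PD minus GS at 6h. Of all genes, 0.0%, 0.0 to 0.624%, 0.0% and 0.0 to 1.34% were called in either direction in these fits. The median of the members kept its sign in all of these fits, with 0.631 to 0.733 in GS at 6h, 0.653 to 0.949 in GS at 12h, 0.0345 to 0.227 in GS at 12h against 6h, 0.0892 to 0.522 in PD at 6h, 0.979 to 1.502 in PD at 12h against 6h, 0.160 to 0.262 at 0h, and -0.567 to -0.0295 and 0.751 to 1.11 in PD minus GS at 6h and 12h.

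Without pig as the block that pairs the samples, 12 members were called in GS at 6h (3.55% of all genes higher), 16 in GS at 12h (5.47%), 0 in PD at 6h (0.579%) and 28 in PD at 12h (5.26%), so that no count moved by more than 1.5 times. Members near 0 changed sign without the block: HEATR1 to 0.026 at 6h and 0.12 at 12h, UTP20 to 0.016 at 12h and WDR75 to 0.14 at 6h in GS. WDR75 came to 0.0013 at 6h with only the 2 times in the fit.

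Leaving out single pigs also changed the sign of some members near 0. In GS at 6h POLR1B ranged from -0.13 to 0.15, WDR43 from -0.30 to 0.21 and WDR75 from -0.23 to 0.13. In GS at 12h HEATR1 ranged from -0.48 to 0.020, WDR43 from -0.44 to 0.31 and WDR75 from -0.058 to 0.22. At 0h POLR1B ranged from -0.28 to 0.049, RPP40 from -0.27 to 0.050 and UTP20 from -0.0666 to 0.31. NOP56 and TSR1 lost their call at 0h without PD pig 4 (0.87 and 0.81). At 12h in GS TSR1 lost it without pig 17 or 55 (0.93 and 0.90), and NPM3 without pig 55 (0.92). Of the 17 members described by library, 548 values in GS and at 0h kept direction and call over all alternatives, 6 gained a call, 5 lost one and 19 turned sign. In PD at 12h 139 kept both, 6 gained a call, 38 lost one and 2 turned sign. All 11 of these members called in PD at 12h lost the call without pig 3, without pig 5 and with only the 2 times in the fit, and 5 lost it without pig 4. DIMT1 in PD at 12h ranged from -1.12 (without pig 4) to 0.66 (without pig 2), and came to 0.42 without the 12h library of pig 2.

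PD had 4 pigs, at most 21820935 counts a library and a wider spread than GS, with a coefficient of variation of 0.489 against 0.259. Depth is a limit for WDR43 and DIMT1, and in PD also for NOP14, with 9 counts in the 12h library of pig 2.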
